A study of Mus musculus with 15 samples.

Results

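Wt1, Foxc2, Lmx1b, Tcf21, Pax2 and Pax8 are 6 transcription factors of the nephron lineage, the epithelial line that gives rise to both the glomerular filter and the renal tubule. They were looked up by gene symbol in the 25012 genes with RNA values in a study of MPC5 cells, a mouse podocyte line. RNA and m6A values were read for 5 of the 6, and the RNA of Tcf21 was not analysed here. The members were read as 2 kinds, podocyte factors (Wt1, Foxc2, Lmx1b and Tcf21) and tubular Pax factors (Pax2 and Pax8).

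The study compared 3 conditions of 5 samples, each condition with 2 input samples, 2 samples pulled down with an antibody against N6-methyladenosine (m6A, a methyl mark on adenosines of RNA), and 1 sample of no stated kind. Control cells were unmodified MPC5 cells in regular medium that received no virus. The sh-METTL3 cells carried a virus with a short hairpin RNA against METTL3, the enzyme that writes m6A. The glucose cells carried the same virus and were then kept for 72 hours in medium with glucose at 25 µmol/L as labelled, a unit that was not checked and is in doubt, since cell media usually hold glucose in the millimolar range. Every sample of both virus groups was labelled as METTL3 knockdown, and the labels name no group with a control virus or with glucose and no hairpin, so the virus and the hairpin cannot be told apart. All cells came from 1 line.

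RNA was given as 1 library per condition, with 54282720 counts for control, 53655982 for sh-METTL3 and 52807701 for glucose. There were no replicates, so no test was made. Intervals are 95% intervals that cover counting error only, and spread between cultures is unknown. Mettl3 was not lower where a knockdown was labelled, at 989, 1028 and 1033 counts in control, sh-METTL3 and glucose. Its ratio of count shares was 1.05 (0.963 to 1.15) for sh-METTL3 over control and 1.07 (0.983 to 1.17) for glucose over control. The names sh-METTL3 and glucose below therefore mean the libraries so labelled.

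In the embryonic kidney, Pax2 and Pax8 mark the nephron progenitors and the epithelia that form from them, and they stay on in tubules and collecting ducts. Podocytes, the cells that wrap the glomerular capillaries, keep Wt1 at a high level and lose Pax2 as they mature, and WT1 is reported to repress Pax2. Wt1, Lmx1b, Foxc2 and Tcf21 each take part in building or keeping the podocyte.

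The upstream sequences of the Pax genes are shown first, since Pax2 and Pax8 held nearly all of the members' RNA. They come from RefSeq on mouse build GRCm38.p6, in lower case and 5′ to 3′ on the gene's strand, as the 250 bases before an annotated start site. The windows lie at chr2:24475600-24475849 (minus strand) for Pax8 and at chr19:44755502-44755751 (plus strand) for 1 of 3 annotated starts of Pax2. That Pax2 window ends before the gene span listed with the counts, which begins at 44756045. Capitals mark CAGCTG, an E-box of the kind TCF21 binds with its partners.
Pax8: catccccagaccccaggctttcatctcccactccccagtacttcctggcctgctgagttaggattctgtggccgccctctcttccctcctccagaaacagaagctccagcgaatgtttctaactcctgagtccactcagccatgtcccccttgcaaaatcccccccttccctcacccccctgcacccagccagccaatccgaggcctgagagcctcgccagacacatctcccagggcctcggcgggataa
Pax2: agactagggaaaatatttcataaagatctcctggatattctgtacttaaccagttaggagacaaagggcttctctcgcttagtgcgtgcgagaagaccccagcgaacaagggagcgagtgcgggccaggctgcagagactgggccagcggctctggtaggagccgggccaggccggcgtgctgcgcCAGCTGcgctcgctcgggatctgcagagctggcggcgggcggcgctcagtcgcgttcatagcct

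The Pax2 window shown held 61.7% G and C and 23 CpG dinucleotides, and the Pax8 window 59.3% and 7. The windows of the other Pax2 starts held 54.7% and 7 at the first and 71.7% and 30 at the last. Over the 32851 promoter windows of the RefSeq table the medians were 52.7% and 7, each window running 250 bases before and 50 after a start. At another Pax2 start the window held GCGGGGG, a G-rich form related to the sites of WT1 and of the EGR factors, at chr19:44756832-44756861 on the plus strand, inside the gene span that the files give. Capitals mark it here.
Pax2 site: ccttttccggggGCGGGGGccggctcgcac

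Both strands of 6 member windows (3 of Pax2 and 1 each of Pax8, Lmx1b and Tcf21) were searched for 6 motifs. These were GCGTGGG and GCGGGGG for WT1 and EGR factors, TGTTTAC for forkhead factors, GTCACGC for PAX2 and PAX8, CAGCTG for TCF21 and TAATTA for homeodomain factors such as LMX1B. Only the 2 matches shown were found, at positions -64 (CAGCTG) and -62 (GCGGGGG) from their starts. Of all windows, 16.3% held CAGCTG and 10.8% held GCGGGGG, and the other shares were 5.04% for GCGTGGG, 3.65% for TGTTTAC, 2.09% for GTCACGC and 5.29% for TAATTA. A match is a run of letters and not a shown binding site.

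The 2 kinds of factor stood far apart in level in this podocyte line. Levels are in FPKM, fragments scaled to transcript length and library size, which can be compared between genes. Pax2 and Pax8 were each at 7.07 FPKM or more in every library, and Wt1, Foxc2 and Lmx1b were each at 0.654 or less. Pax2 and Pax8 together came to 20.0, 75.8 and 42.3 FPKM in control, sh-METTL3 and glucose. Wt1, Foxc2 and Lmx1b together came to 0.947, 0.137 and 0.537 FPKM. The Pax sum was thus 21.1 times the podocyte factor sum in control, 552 times in sh-METTL3 and 78.9 times in glucose.

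**Figure D1:**
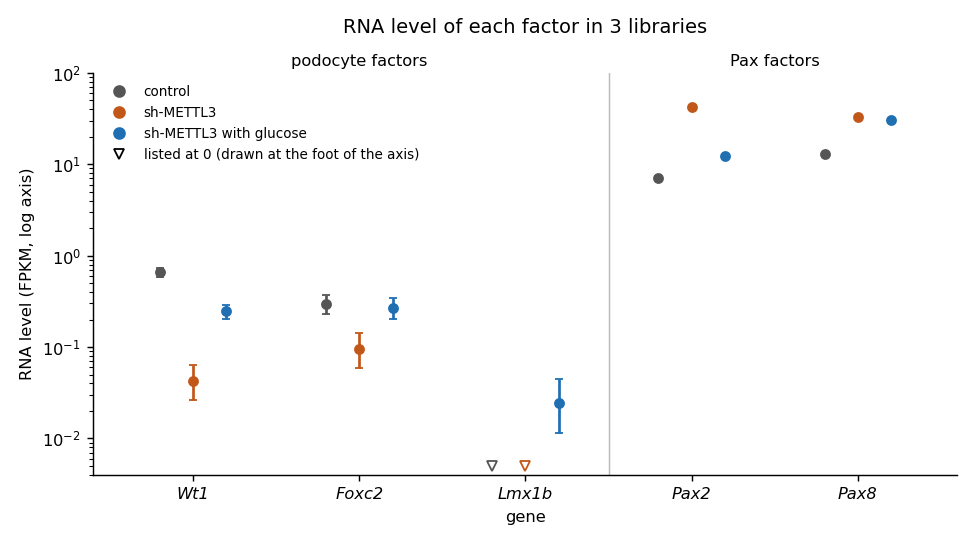
RNA level in FPKM (log axis) of the 5 members with values in the 3 libraries. Points are single libraries, bars are exact 95% Poisson intervals of the counts scaled to FPKM, and open triangles stand for genes listed at 0. The Pax factors lie above 7 FPKM in all 3 libraries, and the podocyte factors lie below 1.

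Wt1 (ENSMUSG00000016458, chromosome 2, 105126529 to 105173612, plus strand), a zinc finger factor required for nephron and podocyte development, had 338 counts in control, 22 in sh-METTL3 and 125 in glucose. These were 0.654 (0.587 to 0.728), 0.0423 (0.0265 to 0.0641) and 0.245 (0.204 to 0.292) FPKM. Control was highest and sh-METTL3 lowest, and the 3 counting intervals did not overlap. Even in control the level was above that of only 51.8% of the listed genes, and it was above 26.4% in sh-METTL3 and 41.3% in glucose.

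Foxc2 (ENSMUSG00000046714, chromosome 8, 121116171 to 121118895, plus strand), a forkhead factor of podocytes and of the lymphatic and vascular endothelium, had 67, 22 and 60 counts. Its levels were 0.293 (0.227 to 0.372), 0.0949 (0.0595 to 0.144) and 0.267 (0.204 to 0.344) FPKM. Control and glucose overlapped, and sh-METTL3 lay below both.

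Lmx1b (ENSMUSG00000038765, chromosome 2, 33560965 to 33640608, minus strand), the LIM homeodomain factor mutated in human nail-patella syndrome, had 0 counts in control, 0 in sh-METTL3 and 10 in glucose. Its level in glucose was 0.0241 FPKM (0.0116 to 0.0444), and the counts of 0 allow up to 3 counts per library. Against that floor the glucose share was at least 3.43-fold higher than control and at least 3.39-fold higher than sh-METTL3. The exact intervals, which also hold the counting error of the 10 counts, start at 2.30 and 2.28. With under 30 counts over the 3 libraries, Lmx1b is a low count and was left out of the counts of members past a threshold.

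Pax2 (ENSMUSG00000004231, chromosome 19, 44756045 to 44837871, plus strand), a paired box factor of the nephron and the ureteric bud, had 3173 counts in control, 19186 in sh-METTL3 and 5358 in glucose. Its levels were 7.07 (6.82 to 7.32), 42.5 (41.9 to 43.1) and 12.2 (11.9 to 12.5) FPKM. The sh-METTL3 library was highest and control lowest, with no overlap. Pax2 ranked 752 among the 25012 genes in sh-METTL3, against 4707 in control and 3290 in glucose.

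Pax8 (ENSMUSG00000026976, chromosome 2, 24420560 to 24475599, minus strand), the paralog that acts together with Pax2 in the early kidney and also serves the thyroid, had 6518, 16799 and 14858 counts. Its levels were 13.0 (12.6 to 13.3), 33.2 (32.7 to 33.8) and 30.1 (29.7 to 30.6) FPKM. Both virus libraries lay above control, and sh-METTL3 lay above glucose.

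The FPKM of Pax2 over that of Pax8 was 0.545 in control, 1.28 in sh-METTL3 and 0.404 in glucose.

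Within a library the order of FPKM was Pax8, Pax2, Wt1, Foxc2 and Lmx1b in control. In sh-METTL3 it was Pax2, Pax8, Foxc2, Wt1 and Lmx1b, and in glucose Pax8, Pax2, Foxc2, Wt1 and Lmx1b. The counting intervals of Foxc2 and Wt1 overlapped in sh-METTL3 and in glucose, so their order there was not resolved at this depth. All other neighbours differed beyond counting error. Wt1 therefore stood above Foxc2 in control alone, and Pax2 stood above Pax8 in sh-METTL3 alone.

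In sh-METTL3 over control, the members moved apart by kind. Ratios from here on are of count shares, the gene's counts over all counts of its library, and a gene was called past 2-fold at a ratio of at least 2 or at most 0.5. Calls were made for the 17097 genes with 30 or more counts over the 3 libraries, 4 of them members. Wt1 was lower at a ratio of 0.0659 (0.0407 to 0.101) and Foxc2 at 0.332 (0.195 to 0.545). Pax2 was higher at 6.12 (5.89 to 6.35) and Pax8 at 2.61 (2.53 to 2.68). Of the 4 members, 2 were past 2-fold higher and 2 lower, beside 24.6% higher, 14.3% lower and 38.9% in either direction over all tested genes.

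The median tested gene had a ratio of 1.15 in that comparison. Relative to it, Wt1 stood at 0.0572, Foxc2 at 0.288, Pax2 at 5.31 and Pax8 at 2.26. Wt1 lay above 2.05% of the tested genes and Pax2 above 94.0%, while Foxc2 (7.31%) and Pax8 (82.9%) lay further in. Ratios also varied with length, here the transcript length implied by counts and FPKM and not the gene span. In the tenth of genes by length that holds Wt1 and Pax8 the median was 1.33, with 27.8% higher and 7.02% lower, and in the tenth with Pax2 it was 1.25, with 25.7% and 8.89%. The part of length in the members' ratios was not tested.

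In glucose over control, the spread was smaller. Wt1 was lower at 0.380 (0.307 to 0.468), and Foxc2 at 0.921 (0.639 to 1.32) did not differ beyond counting error. Pax8 was higher at 2.34 (2.28 to 2.41), and Pax2 at 1.74 (1.66 to 1.81) was above 1 but short of 2-fold. So 1 of the 4 members was past 2-fold higher, 1 lower and 2 in between, where 24.0% of all tested genes were higher, 7.87% lower and 31.9% either. Relative to the median gene, at 1.22, Wt1 stood at 0.312, Foxc2 at 0.755, Pax2 at 1.42 and Pax8 at 1.92. The median in the tenth of genes by length with Wt1 and Pax8 was 1.43.

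In glucose over sh-METTL3, Wt1 was higher at 5.77 (3.65 to 9.54) and Foxc2 at 2.77 (1.68 to 4.74). Pax2 was lower at 0.284 (0.275 to 0.293), and Pax8 was at 0.899 (0.879 to 0.919). This gave 2 members higher, 1 lower and 1 in between, beside 11.6% higher, 7.98% lower and 19.5% either over all tested genes. The median gene was at 1.05, and relative to it Wt1 stood at 5.52, Foxc2 at 2.65, Pax2 at 0.272 and Pax8 at 0.86. Fewer genes were past 2-fold here than in either comparison with control, while Wt1, Foxc2 and Pax2 were among them. Each pair of comparisons shares a library, so the 3 sets of ratios are not independent.

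**Figure D2:**
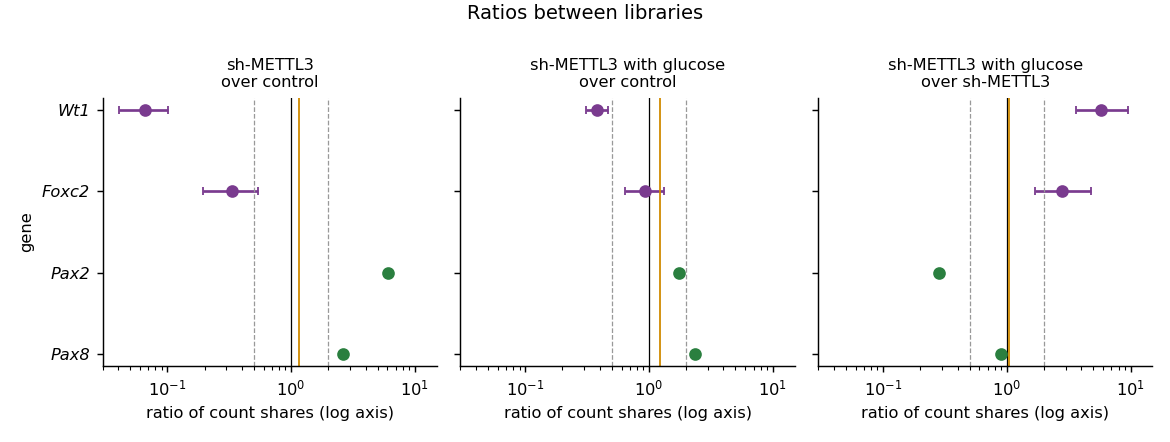
Ratio of count shares (log axis) for the 4 members with 30 or more counts, in the 3 comparisons. Bars are exact 95% binomial intervals (counting error only, narrower than the point for the Pax factors), dashed lines mark 2-fold and the orange line the median tested gene. Wt1 and Foxc2 lie left of 1 and Pax2 and Pax8 right of it in sh-METTL3 over control, and all 4 are on the other side of 1 in glucose over sh-METTL3.

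Wt1 was ordered control, glucose, sh-METTL3 from high to low, and Pax2 had the reverse order. With 3 libraries this is a description of 3 pairs of values. Pax8 did not follow it as closely, since its sh-METTL3 and glucose levels of 33.2 and 30.1 FPKM were near each other while Wt1 differed 5.77-fold between them. Because these are bulk samples, fewer cells that express a factor and less of its RNA per cell cannot be told apart.

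The opposite-strand genes 1700039E22Rik (23, 119 and 14 counts) and Gm20395 (2, 6 and 0 counts) lie across Pax2, with Mir6405 on its own strand at 0, 5 and 0. Gm13415 lies opposite Pax8, with 19, 125 and 58. The library kit marked strand, but whether counting used it was not given in the sources used here, and the part of these genes in the Pax counts was not tested. No listed gene overlapped Wt1, Foxc2 or Lmx1b.

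Cell type markers were read beside these values. Among 12 tubular markers, 8 had a row and 3 reached 30 counts, and the FPKM summed over the list was 43.7, 102 and 54.3. Most of that was Cdh16, the kidney-specific cadherin of tubules, at 41.6, 87.1 and 46.2 FPKM, and Lrp2 (megalin, the endocytic receptor of the proximal tubule) was at 2.05, 14.6 and 7.86. Other defining tubular genes were at or near 0: Aqp2 had 4, 0 and 0 counts, Slc12a3 had 0, 0 and 8, Slc5a2 had 0, 15 and 0 and Cdh1 had 0, 6 and 0. Of the 3 tested markers, 2 were past 2-fold higher in sh-METTL3 over control, 2 in glucose over control and 0 in glucose over sh-METTL3. The shares higher over all tested genes were 24.6%, 24.0% and 11.6%.

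Among 14 podocyte structure markers, 12 were tested, and their FPKM sum was 96.8, 207 and 218. Of these, 6 were higher and 1 lower in sh-METTL3 over control, with a median ratio of 1.87. Nphs1, which encodes nephrin of the slit diaphragm, was the lower one at 0.417 (0.383 to 0.454), from 3.35 FPKM in control to 1.37 in sh-METTL3 and 1.85 in glucose. Synpo, which binds actin in the foot processes, was higher at 7.35 (6.86 to 7.87). Over control, the glucose library had 6 of them higher and 0 lower, and over sh-METTL3 it had 1 higher and 3 lower. Of all tested genes, 24.6% were higher and 14.3% lower in sh-METTL3 over control. The same shares for glucose were 24.0% and 7.87% over control and 11.6% and 7.98% over sh-METTL3. The largest part of the FPKM sum was Actn4, at 54.55, 87.45 and 104.5 FPKM, and Nes was at 14.5, 39.8 and 55.0. Magi2, Plce1 and Dach1 were each at 0.139 FPKM or less in every library. The list sum of 96.8 or more thus rests on a few genes and does not describe all structural podocyte genes. The sum of the podocyte factors stayed under 1 FPKM in all 3 libraries.

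Markers of other cell types also differed between libraries. Parietal epithelial markers, a list that includes Pax8, summed to 31.1, 51.8 and 57.2 FPKM. Mesangial markers summed to 17.9, 7.84 and 19.7, endothelial markers to 1.37, 0.971 and 3.09 and leukocyte markers to 3.03, 5.91 and 6.23. The defining endothelial gene Cdh5 had 5, 0 and 8 counts and the leukocyte gene Ptprc had 0, 7 and 0. Of the tested endothelial genes, Kdr had 635, 433 and 909 counts, Flt1 206, 119 and 408 and Ehd3 170, 161 and 763. All 3 were past 2-fold higher in glucose over sh-METTL3, beside 11.6% of all tested genes. In sh-METTL3 over control 0 were past 2-fold, beside 38.9%. The tested leukocyte genes were Csf1r (213, 1939 and 473) and Cd68 (271, 198 and 534). In glucose over sh-METTL3 1 was higher and 1 lower, beside 11.6% and 7.98%. Most of the mesangial sum was Acta2, a smooth muscle actin also found in other contractile cells, at 15.8, 2.94 and 15.2 FPKM, and it was lower in sh-METTL3 over control at 0.189 (0.172 to 0.208). Pdgfrb, a growth factor receptor of the same list, was higher there at 7.36 (6.44 to 8.42). Of the 4 tested mesangial markers, 1 was past 2-fold higher and 2 lower in that comparison, beside 24.6% and 14.3% of all tested genes. Krt8, an epithelial keratin of the parietal list, was lower at 0.114 (0.0549 to 0.212). The part of other cell types in the members' ratios was not tested.

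Other podocyte transcription factors did not share the position of Wt1 and Foxc2. All 8 of that list were tested, and in sh-METTL3 over control 3 were higher, 1 lower and 4 in between (median 1.23). Shares over all tested genes were 24.6% higher and 14.3% lower. Foxc1, the close paralog of Foxc2, had 843, 3206 and 685 counts and was higher at 3.85 (3.57 to 4.16), where Foxc2 was at 0.332. Nr3c1, the glucocorticoid receptor, was higher at 2.91 (2.77 to 3.06). Klf15, a Kruppel-like factor of differentiated podocytes, was the lower one, at 7, 0 and 41 counts, with an interval of the ratio that reached 0.702.

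Of those 8, 4 were past 2-fold higher in glucose over control and 0 lower (median 2.01), beside 24.0% and 7.87% of all tested genes. In glucose over sh-METTL3 2 were higher and 1 lower (median 1.14), beside 11.6% and 7.98%. Zbtb7c had the largest ratio with counts in every library, at 6.12 (4.36 to 8.78) and 11.5 (7.36 to 18.9) in those comparisons, from 40, 21 and 238 counts. Foxc1 was the lower one in glucose over sh-METTL3, at 0.217 (0.200 to 0.236).

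Of 14 nephron progenitor factors 7 had a row and 6 were tested. In sh-METTL3 over control 5 were higher, 0 lower and 1 in between (median 2.72), beside 24.6% higher and 14.3% lower over all tested genes. The seventh, Cited1, a marker of early progenitors, had 18, 0 and 0 counts and was too low to be tested. Eya1, a coactivator of the progenitor program, had 77, 1187 and 196 counts and was higher at 15.6 (12.4 to 19.9). Sall1, a zinc finger factor of progenitors, was higher at 8.04 (7.17 to 9.05). Against control the glucose library had 3 higher and 1 lower, beside 24.0% and 7.87% of all tested genes. Wnt4 (a signal for epithelial conversion, kept in this list) was at 4.07 (3.50 to 4.75) against control and Hoxc11 at 0.470 (0.426 to 0.519). In glucose over sh-METTL3 0 were higher and 3 lower, beside 11.6% and 7.98% of all tested genes. Eya1 was there at 0.168 (0.144 to 0.195) and Emx2, a homeodomain factor of the urogenital system, at 0.335 (0.315 to 0.356), beside Pax2 at 0.284.

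Of 16 tubule and duct factors 12 had a row and 11 were tested. In sh-METTL3 over control 6 were higher, 1 lower and 4 in between (median 2.72), beside 24.6% higher and 14.3% lower over all tested genes. Ehf, an epithelial ETS factor, was higher at 5.36 (3.86 to 7.62) and Esrrg, an orphan nuclear receptor, at 4.72 (2.50 to 9.68), from 12, 56 and 15 counts. Grhl2, a grainyhead-like factor of epithelia, was lower at 0.469 (0.257 to 0.826) and higher in glucose over sh-METTL3 at 8.24 (5.10 to 14.1). The count was 4 higher and 0 lower in glucose over control, beside 24.0% and 7.87% of all tested genes. It was 1 higher and 3 lower in glucose over sh-METTL3, beside 11.6% and 7.98%. Maf, a basic leucine zipper factor, was at 0.296 (0.276 to 0.317) in the last comparison.

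Kidney stroma factors were mixed. Of 8 genes 7 had a row and 6 were tested, with 2 higher, 1 lower and 3 in between in sh-METTL3 over control. Among all tested genes 24.6% were higher and 14.3% lower there. Foxd1, which marks stromal progenitors and is also found in podocytes, was higher at 2.02 (1.84 to 2.20). Twist1, a mesenchymal basic helix-loop-helix factor, was lower at 0.333 (0.306 to 0.361), and at 0.427 (0.396 to 0.461) in glucose over control. In glucose over sh-METTL3 0 were higher and 2 lower, beside 11.6% and 7.98% of all tested genes.

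Of the cofactors of the members, all 13 were tested. In sh-METTL3 over control 4 were higher and 0 lower (median 1.23), beside 24.6% and 14.3% of all tested genes. In glucose over control 2 were higher and 0 lower, beside 24.0% and 7.87%. In glucose over sh-METTL3 0 were past 2-fold, beside 19.5% in either direction. Cited2, a coactivator that works with WT1 in the adrenal, was higher at 3.36 (3.24 to 3.49) and 2.93 (2.82 to 3.05) over control. Kmt2d, a histone methyltransferase of the complex that Paxip1 ties to Pax2, was at 2.60 (2.50 to 2.69) and 2.31 (2.23 to 2.40). Paxip1 itself was at 2.17 (2.09 to 2.25) in sh-METTL3 over control. Basp1, a corepressor of WT1, had 58.7, 46.0 and 61.7 FPKM, far above Wt1. Wtap, first found as a WT1-associated protein and now known as a subunit of the m6A writer, had 5.60, 6.16 and 4.82 FPKM.

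Genes known as targets of Wt1 or Lmx1b in podocytes were not lower as a list where Wt1 was lowest. Of 21 genes 18 had a row and 17 were tested. In sh-METTL3 over control 9 were higher, 2 lower and 6 in between, beside 24.6% higher and 14.3% lower over all tested genes. The median was 2.1 against 1.15 over all tested genes. The 2 lower genes were Nphs1 and Sema3g, a secreted semaphorin of podocytes, which had 101 counts in control, 0 in sh-METTL3 and 100 in glucose. Against the floor of 3 counts per library, Sema3g had a ratio of at most 0.0301 in sh-METTL3 over control and was at least 33.9-fold higher in glucose over sh-METTL3, and its exact intervals reached up to 0.0376 and down to 27.0. Scel (sciellin) was higher at 16.0 (11.9 to 22.1), from 46, 729 and 85 counts. Plce1, a phospholipase C of podocytes, had 0, 72 and 19 counts and was at least 24.3-fold higher in sh-METTL3 than control against the floor, with an exact interval from 19.2.

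Of the 17, 6 were higher and 1 lower in glucose over control (median 1.67), beside 24.0% and 7.87% of all tested genes. In glucose over sh-METTL3 2 were higher and 6 lower (median 0.832), beside 11.6% and 7.98%. Synpo was at 9.94 (9.29 to 10.6) in glucose over control. Rab3b, a small GTPase, was at 0.257 (0.0948 to 0.602) and had 28, 33 and 7 counts. The target list shares Nphs1, Podxl, Synpo and other genes with the podocyte structure markers, so the counts of both lists are not separate.

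**Figure D3:**
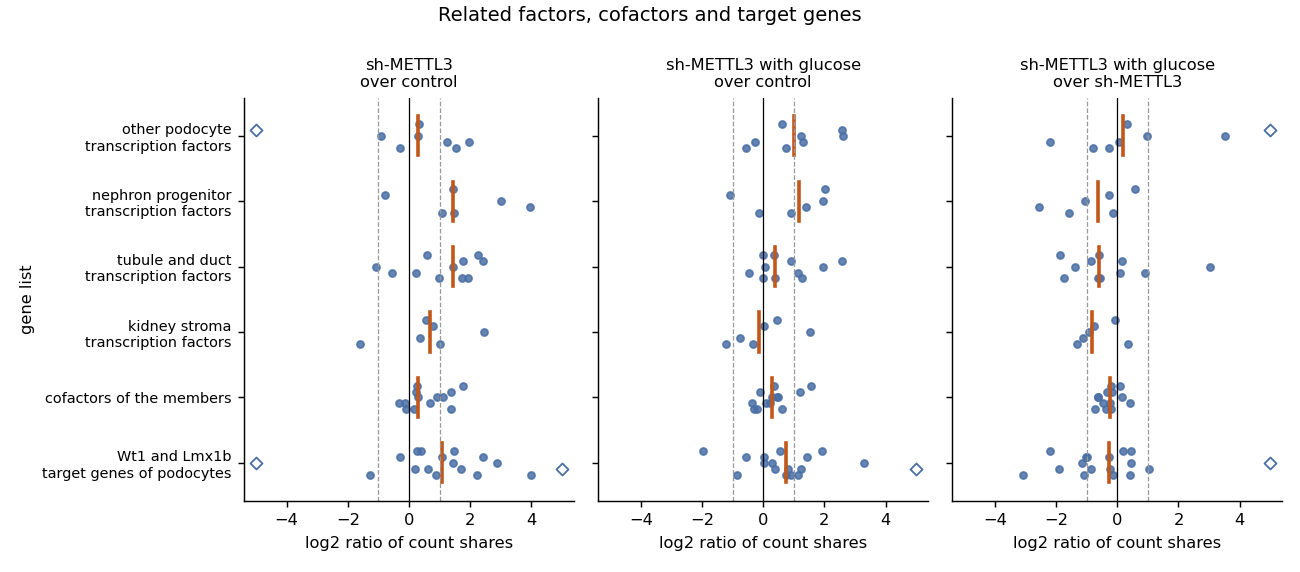
Log2 ratio of count shares of each tested gene in 6 lists related to the members, for the 3 comparisons. Each point is 1 gene, orange bars are list medians, dashed lines mark 2-fold, and open diamonds at the edges are genes with 0 counts in 1 of the libraries compared. Medians of progenitor and of tubule and duct factors are both at a ratio of 2.72 in sh-METTL3 over control and are both below a ratio of 1 in glucose over sh-METTL3.

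The genes most like the Pax factors over the 3 libraries were found on log2(FPKM + 1) values centred on each gene's mean, by distance, among 9579 protein-coding genes averaging 1 FPKM or more, predicted genes and pseudogenes left out. For Pax2 they were Map3k21 (distance 0.0729), Btg2 (0.110) and Chdh (0.112). Btg2, an antiproliferative gene, had 9.67, 60.5 and 15.7 FPKM. Map3k21 had 0.107, 4.66 and 0.835 FPKM and Chdh had 0.0576, 5.03 and 0.928. As ratios, these 2 rose far more in sh-METTL3 over control than Pax2. They lie near it because adding 1 before the logarithm compresses levels below 1. For Pax8 they were Zfpm2 (0.00688), Lrrc8d (0.0162) and Gpatch8 (0.0174), and Zfpm2, a cofactor of GATA factors, had 1.20, 4.35 and 3.87 FPKM. Each pattern rests on 3 points. Wt1, Foxc2 and Lmx1b were below the mean of 1 FPKM and were not searched.

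The members' m6A was read from the authors' peak lists, 1 per condition, which give regions where the pulled-down RNA exceeded input, with the authors' fold enrichment and adjusted p. The members had 6 peaks in the control list, 6 in sh-METTL3 and 11 in glucose, of which 3, 4 and 7 had an adjusted p under 0.05. Of the 4 members with 30 or more counts, 3 had a peak in control and 4 in each of the others, beside 62.3%, 64.2% and 66.7% of all such genes. Lmx1b had none in any list. The lists themselves held 22498, 24626 and 27480 peaks with median folds of 5.99, 5.51 and 4.81. Folds are therefore placed within their own list and not compared between lists.

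Pax2 and Pax8 each had a peak at the 3′ end of the transcript in all 3 lists. Among the 11591 genes averaging 1 FPKM or more, 70.6%, 72.2% and 78.6% had any peak in control, sh-METTL3 and glucose, and 58.2%, 58.8% and 65.0% had one annotated to the 3′ untranslated region (3′ UTR). For Pax8 it had the same ends in all lists, chromosome 2, 24420560 to 24421545, with folds of 9.78, 5.62 and 7.85, above 73.5%, 50.6% and 72.2% of the peaks of their lists. For Pax2 the control peak ran from 44835426 to 44837692 on chromosome 19 with a fold of 11.5, and the sh-METTL3 peak from 44835959 to 44837871 with 9.52. In glucose the same stretch was listed as 3 peaks, at 44835989 to 44836945 (fold 13.4), 44837005 to 44837303 (2.44) and 44837483 to 44837871 (10.1). The control and sh-METTL3 peaks of Pax2 stood above 78.7% and 76.4% of their lists. Its 3 glucose peaks stood above 92.1%, 20.8% and 83.1%. Where a region is 1 peak in one list and 3 in another, the number of peaks says little about m6A.

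**Figure D4:**
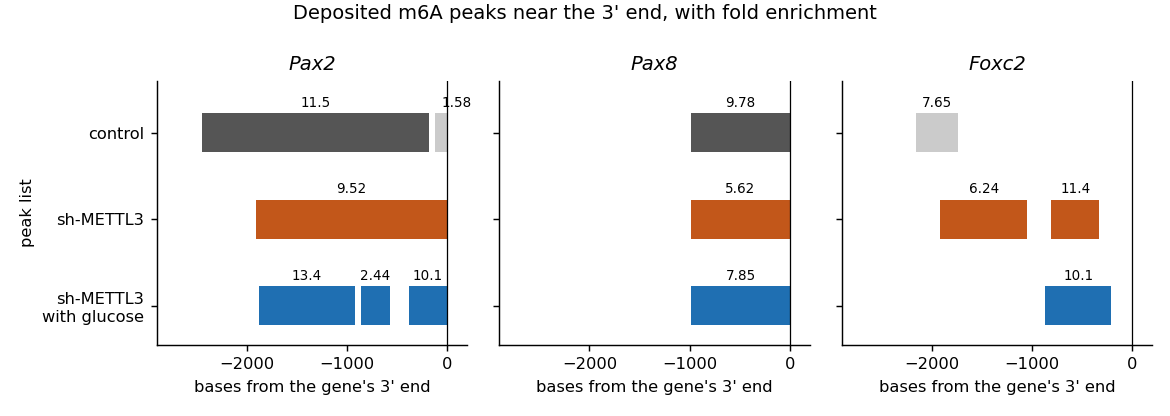
Deposited m6A peaks near the 3′ end of Pax2, Pax8 and Foxc2, by distance from that end in bases, 1 row per peak list. Each bar is 1 peak, its number is the authors' fold enrichment, and pale bars have an adjusted p of 0.05 or more. Pax8 has the same peak in the 3 lists, Pax2 is split in 3 in glucose, and the control peak of Foxc2 lies apart from its 3′ UTR peaks.

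Weaker peaks lay at the 5′ end of Pax2, in control at 44756105 to 44756284 (fold 1.91, adjusted p = 0.049 in the authors' list) and 44756583 to 44756792 (1.57, 0.0724), and in glucose at 44756075 to 44756254 (2.47, 0.0214). The sh-METTL3 list, from the condition with the highest Pax2 level, had none there. For Pax8 the glucose list added a peak in the 5′ untranslated region (fold 4.53, the authors' adjusted p = 0.0776) and 2 in introns (3.27 at 0.0955 and 3.14 at 0.00933). The second Pax2 peak in control shared 137 bases with the promoter window that holds GCGGGGG, and the 5′ peak of Pax8 shared 50 bases with its window. Neither shared stretch held GGAC, the core letters of the m6A consensus. The whole peaks span 210 bases in Pax2 and 479 in Pax8, and their other bases were not searched.

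Foxc2 had 1 exonic peak in control (fold 7.65, the authors' adjusted p = 0.3). In sh-METTL3 it had an exonic peak (6.24, 0.00871) and one in the 3′ UTR (11.4, 0.000427), and in glucose one in the 3′ UTR (10.1, 0.0263). The 3′ UTR peaks of both virus lists overlapped, at 121118087 to 121118566 and 121118027 to 121118685 on chromosome 8. In the RNA libraries Foxc2 had 67 counts or fewer, so these peaks belong to a gene with little RNA.

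Wt1 had no peak in control and 2 in each of the other lists, all 4 at an adjusted p above 0.05 in the authors' lists. The first, annotated to the 5′ untranslated region, spans 105126529 to 105163264 in sh-METTL3 (fold 7.28, adjusted p = 0.0661) and ends at 105163204 in glucose (7.04, 0.055). The second is the same stretch in both, 105172299 to 105172389 in the 3′ UTR, at 2.31 (0.0955) and 1.54 (0.136). Wt1 had its highest RNA level in control, the list without a Wt1 peak.

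Peaks were called shared when they overlapped by at least 1 base on the same strand. Of the 6 control peaks of the members, 4 were shared with sh-METTL3 and 4 with glucose. Of the 6 in sh-METTL3, 3 were shared with control and 5 with glucose, and of the 11 in glucose 5 were shared with control and 7 with sh-METTL3. Asking for an overlap of 50% of both peaks left 2 of the 6 control peaks shared with sh-METTL3.

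Of the members, Pax8 alone had a peak in the authors' deposited tables of differential m6A. The authors' deposited table gave its 3′ UTR peak a log2 fold change of -0.30 in glucose over control (p = 2.04e-08, adjusted p = 2.88e-07). For glucose over sh-METTL3 the authors' deposited table, with its sign turned, gave -0.42 (p = 1e-13, adjusted p = 1.26e-11). The list folds of this peak were 7.85 in glucose and 5.62 in sh-METTL3, each scaled within its own list, so the direction of the difference at this peak is uncertain. Over the 144 peaks with the same ends in both lists and that table, the sign of the table matched the order of the list folds in 126 (87.5%), and the Pax8 peak was not one of them. Among genes averaging 1 FPKM or more, 39.1% had a peak at an adjusted p under 0.05 in the glucose over control table, 22.6% in glucose over sh-METTL3 and 14.1% in sh-METTL3 over control.

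For Wtap the authors' deposited table gave an exonic peak at -0.64 in sh-METTL3 over control (adjusted p = 4.37e-07) and -0.67 in glucose over control (adjusted p = 2.82e-09). Pax2, with the highest RNA ratio of the members in sh-METTL3 over control, stood in none of these tables.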

How the data were processed

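Per the labels' protocols, poly(A) RNA was fragmented, input and m6A antibody fractions were made into strand-marked libraries, and read pairs were sequenced. HOMER 4.10, edgeR 4.1, StringTie 2.1.2, HISAT2 2.0.4 and fastp 0.19.4 stand in the submitters' processing notes with no role stated. The peak caller was not given in the sources used here. The notes name the build GRCh38, although the cells are mouse, and the members' coordinates matched RefSeq genes of mouse GRCm38.p6. Per the file headers, the authors deposited FPKM and whole-number counts, 1 column of each per condition. Their names match the samples for which no kind is stated, and whether they hold libraries of their own or pooled input was not given in the sources used here. The deposited peak lists give a ratio (fold enrichment) with a log10 p-value and log10 adjusted p-value per peak. The deposited differential tables give a log2 fold change with the same p-values, and the table deposited as sh-METTL3 over glucose was turned. Peak starts are counted from 0, and 1 was added. Whether peaks were called on pooled samples was not given in the sources used here.

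Ratios of count shares with exact binomial 95% intervals, and exact Poisson intervals of levels, were computed in Python 3.11.15 with SciPy 1.17.1, and tested on simulated data. PCR copies are not independent, so intervals cover counting error only. TMM factors came from edgeR 4.0.16 in R 4.3.3. Alternatives were TMM and median-of-ratios scaling, FPKM with pseudocounts of 1 and 0.1, no count filter or 100 counts, stricter peaks and a 50% overlap. Besides the members, Mettl3 and Wtap, genes were named from each list by rule, up to 2 per direction by ratio among those past 2-fold with 30 counts, and others named were chosen after their values were seen. Members and lists were chosen with earlier results of these data known. Some genes of the rule are not reported here. No column of per-sample values was left unused (0).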

Additional observations from a re-analysis of the deposited data

How the results depend on the processing

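TMM and median-of-ratios scaling left the number of members past 2-fold at 4, 2 and 3 (sh-METTL3 over control, glucose over control, glucose over sh-METTL3). FPKM with a pseudocount of 1 gave 2, 1 and 1, and a pseudocount of 0.1 gave 2, 1 and 1, since Wt1 and Foxc2 fall under the mean of 1 FPKM required there. With a pseudocount of 1 the Wt1 ratio was 0.63 in sh-METTL3 over control and 1.19 in glucose over sh-METTL3, close to 1 because the level is below the pseudocount. Without a count filter Lmx1b was added, giving 4, 3 and 4. The members' 23 peaks came to 14 at an adjusted p under 0.05 and to 8 at an adjusted p under 0.001 with a fold of at least 4. Control peaks shared with sh-METTL3 went from 4 to 2 at an overlap of 50%. Of 48 ratios of single members under other settings, 25 stayed within the counting interval, 23 moved beyond it and 0 reversed. A pseudocount added to both levels cannot carry a ratio of FPKM across 1. The TMM and median-of-ratios factors lay between 0.916 and 1.06, so they could turn only ratios near 1. That 0 reversed therefore says little about how firm the ratios are. The log2 ratio of the median tested gene went from 0.20 to 0.04 (sh-METTL3 over control) and from 0.29 to 0.08 (glucose over control) under TMM. Of all calls, 63.3% were higher in sh-METTL3 over control, 54.5% under TMM and 54.8% under median-of-ratios, and 75.3% in glucose over control, 63.0% under TMM and 62.3% under median-of-ratios. Genes called higher and lower in sh-METTL3 over control numbered 4209 and 2438, against 1324 and 928 with a pseudocount of 1, 2065 and 1269 with 0.1 and 6979 and 4842 without a filter. In glucose over control they numbered 4110 and 1346, against 956 and 426, 1779 and 604, and 7086 and 3671. In glucose over sh-METTL3 they numbered 1976 and 1365, against 326 and 214, 569 and 402, and 4653 and 3712. These numbers are of unlike gene sets, 17097 genes in the main setting, 11591 with either pseudocount and 25012 without a filter. As shares in sh-METTL3 over control they were 24.6% and 14.3%, against 11.4% and 8.01%, 17.8% and 10.9%, and 27.9% and 19.4%. No paired analysis was possible because the RNA table has 1 column per condition without replicate numbers, and for the same reason no replicate could be left out. Depth limits Lmx1b and, in sh-METTL3, Wt1 and Foxc2, which rest on 22 counts each.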
